A study of Arabidopsis thaliana with 4 samples.

Results

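The difference between narciclasine-treated and control Arabidopsis root tips was followed gene by gene across both treatment times, to describe which functions gained, lost, kept or reversed it between 2 h and 12 h. For each gene the log2 ratio of narciclasine to control was taken at each time, and the ratio at 2 h was subtracted from the ratio at 12 h to give D. A positive D means that the gene stood higher relative to its control at 12 h than at 2 h, and a negative D that it stood lower. Levels are RPKM, reads scaled by the length of the gene and the size of the library, with 1 RPKM added to every value before the logarithm, so ratios of low genes are understated. Genes with at least 1 RPKM in any of the 4 libraries were taken, 19370 of the 33602 in the deposited table. The other 14232 genes stayed under that level. At the edge of that rule, AT2G41090 reached 1.00 RPKM and entered with a D of 0.16, and AT2G24350 reached 0.999 RPKM and stayed out with a D of 0.047.

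The plants were wild-type Col-0 seedlings, 5 days old, kept in 16 h of light and 8 h of dark in all groups. The narciclasine 2 h and narciclasine 12 h groups had been on 0.5 µM narciclasine for those times, and the control 2 h and control 12 h groups were untreated, with their times given by the sample titles. RNA came from the last 3 mm of excised root tips, a mixture of root cap, dividing, elongating and first differentiated cells. Each group was 1 library, so no difference here has a replicate check, a test or a p-value. "Past 2-fold" means a log2 value of at least 1 in size. In such bulk RNA, fewer cells of a type and less RNA per cell cannot be told apart. The sources used here do not give the hour of the day at each harvest, so that hour and the treatment time cannot be told apart.

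Narciclasine is an alkaloid of daffodils and their relatives that occupies the peptidyl transferase centre of the ribosome and so blocks protein synthesis. The root tip grows by dividing cells in its meristem and then enlarging them through wall loosening and water uptake, before they mature into hairs, endodermis and vessels. Transcripts that answer a stress directly can respond within the first hours, whereas programmes of growth, wall building and differentiation usually shift later.

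The libraries held 14244108 reads in narciclasine 2 h and 14541412 in control 2 h, and 14724075 reads in narciclasine 12 h and 11880278 in control 12 h, as recovered from the steps of the deposited values. Between 17842 and 18386 genes reached 1 RPKM in each. The recovered reads gave each D an approximate 95% counting interval, printed in parentheses after it. It covers counting error only and says nothing about the spread between plants. Where the values of a gene share a divisor, its recovered reads understate the true ones and its interval is too wide.

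Markers of the tissue were present. The root cap factors SMB, BRN1, BRN2 and FEZ had values of D between -0.73 and 0.18. The endodermal genes CASP1 and SCR were at 243 and 25.6 RPKM in narciclasine 12 h and at 458 and 21.6 RPKM in control 12 h. Among hair cell genes, EXPA7 and COBL9 were at 135 and 36.7 RPKM in control 2 h. WOX5, which marks the quiescent centre, was at 7.86 RPKM in narciclasine 2 h and 19.8 in control 2 h, and 1.45 RPKM in narciclasine 12 h and 1.91 in control 12 h. It was thus far lower at 12 h than at 2 h in both arms, with a control change of -2.84 on the log2 scale. The shoot genes RBCS1A, LHCB1.3 and RCA were all highest in control 12 h, at 4.69, 17.9 and 23.9 RPKM, and are described with the photosynthesis genes.

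Across all 19370 genes the median ratio was 0.029 at 2 h and 0.0066 at 12 h on the log2 scale, and the median D was -0.036. The spread over genes was wider at 12 h, with an SD of 0.91 against 0.49 at 2 h. At 2 h, 680 genes (3.51%) were at least 2-fold higher with narciclasine and 202 (1.04%) at least 2-fold lower. At 12 h, 1894 genes (9.78%) were higher and 2255 (11.6%) lower. Higher genes outnumbered lower ones at 2 h, and lower genes outnumbered higher ones at 12 h. By D itself, 1305 genes (6.74%) were at least 2-fold further up at 12 h and 2433 (12.6%) at least 2-fold further down. Values of D ranged from -6.01 to 4.77, with quartiles at -0.55 and 0.42.

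Genes were sorted by what became of their difference. A gene gained a difference if it was past 2-fold at 12 h and not at 2 h, and lost it if the opposite held, each with D past 2-fold as well. In all, 935 genes (4.83%) gained a higher level and 1600 (8.26%) a lower one. A higher level at 2 h was lost by 227 genes (1.17%), and a lower level by 61 (0.315%). Another 30 genes (0.155%) were past 2-fold higher at 2 h and past 2-fold lower at 12 h, and 8 (0.0413%) made the opposite reversal. The difference was past 2-fold in the same direction at both times for 269 higher genes (1.39%) and 75 lower genes (0.387%). Gains were therefore 2535 genes, against 288 losses, 38 reversals and 344 kept differences. The remaining 16165 genes were in no class, although 780 of them had D past 2-fold.

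**Figure D1:**
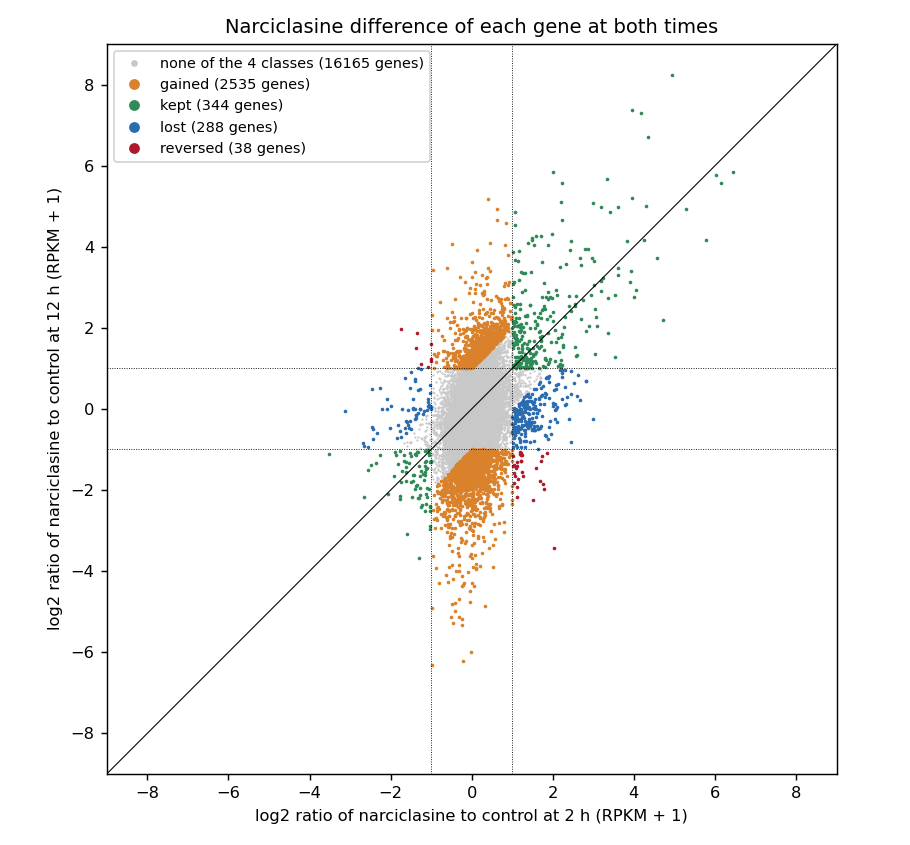
Log2 ratio of narciclasine to control at 2 h (x axis) against the same ratio at 12 h (y axis) for the 19370 genes, on RPKM + 1, with dotted lines at 2-fold and a diagonal of equal ratios. Gained genes (2535, orange) form tall clouds above and below the centre, lost genes (288, blue) lie to its sides, kept genes (344, green) along the diagonal and reversed genes (38, red) in the opposite corners.

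Some of the early differences were still past 2-fold at 12 h. Of the 680 genes higher at 2 h, 269 (39.6%) were still past 2-fold higher at 12 h, and the median of the 680 was 1.33 at 2 h and 0.66 at 12 h on the log2 scale. Of the 202 genes lower at 2 h, 75 (37.1%) were still past 2-fold lower at 12 h, and their median was -1.30 at 2 h and -0.81 at 12 h. Both sets were chosen by their 2 h ratios from 1 library a group, so medians of smaller size at 12 h follow in part from that choice. How large that part is was not tested. Seen from the later time, 14.2% of the genes higher at 12 h and 3.33% of those lower at 12 h had already been past 2-fold in that direction at 2 h. The early set thus made up a larger share of the later higher genes than of the later lower genes.

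D can also be written as the change from 2 h to 12 h in the narciclasine libraries minus the change in the control libraries. The narciclasine part was past 2-fold for 3475 genes (17.9%) and the control part for 725 (3.74%). Of the 3738 genes with D past 2-fold, the control part was the larger in size for 533 (14.3%). That share depended on the class. It was 11.6% of the genes that gained a higher level and 10% of those that gained a lower one, against 28.6% of those that lost a higher level and 60.7% of those that lost a lower one. Where the control part is the larger, the value of D rests mainly on the difference between both control libraries.

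Functions were described with 68 gene lists and families of 3 to 303 measured genes. The median D was past 2-fold upward in 3 lists, the flavonol pathway, suberin synthesis and ribosome biogenesis. It was past 2-fold downward in 11, namely mitosis, tubulins, root hair growth, arabinogalactan proteins, XTH wall enzymes, both aquaporin groups, the Casparian strip, auxin synthesis, PEP danger peptides and photosynthesis genes. The other 54 lists stayed within 2-fold. Several of those held members that moved far in both directions. Of the 14 medians, 6 stayed past 2-fold under every alternative tried, those of the flavonol, suberin, root hair, arabinogalactan, tonoplast aquaporin and tubulin lists. With the mean of both controls at both times, ribosome biogenesis, PEP peptides, photosynthesis, the Casparian strip, plasma membrane aquaporins and XTH enzymes came within 2-fold. With another pseudocount or no filter, mitosis and auxin synthesis did so too.

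**Figure D2:**
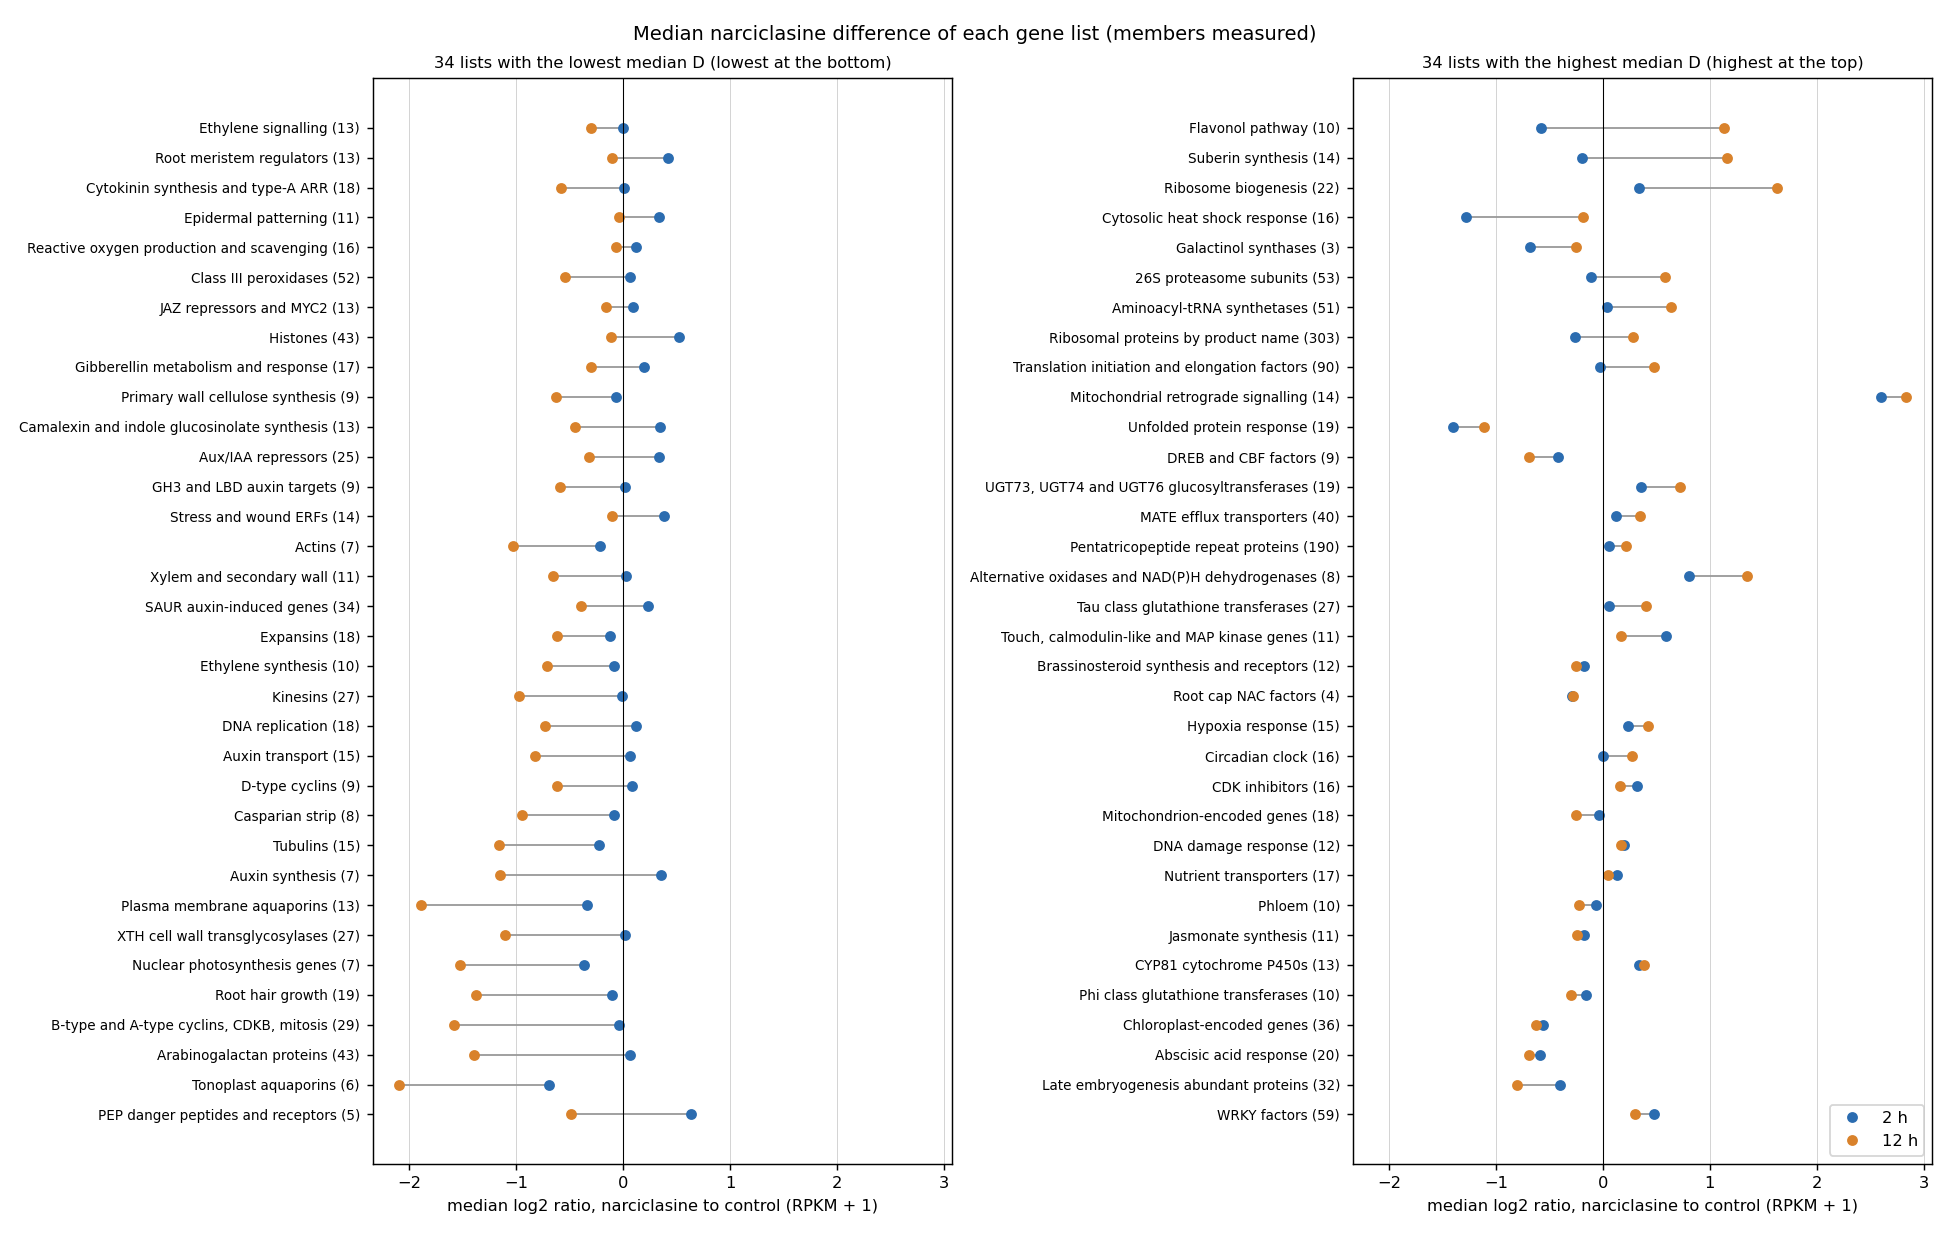
Median log2 ratio of narciclasine to control of each of the 68 lists at 2 h (blue) and at 12 h (orange), joined by a line, with the number of measured genes in parentheses. Lists are ordered by median D, from the PEP, tonoplast aquaporin and arabinogalactan lists at the low end to the flavonol list at the high end, whose median was -0.58 at 2 h and 1.14 at 12 h.

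All flavonol pathway genes measured shifted upward between the times. Flavonols are phenolic compounds made from phenylalanine that absorb ultraviolet light, scavenge radicals and slow auxin transport. All 10 measured genes of the list had D past 2-fold upward, against 6.74% of all genes, and 7 of them gained a higher level by the class rule. The median ratio was -0.58 at 2 h and 1.14 at 12 h. TT4, chalcone synthase and the entry enzyme of the pathway, was at 251 RPKM in narciclasine 2 h and 383 in control 2 h, and 1816 RPKM in narciclasine 12 h and 858 in control 12 h. Its level was highest in narciclasine 12 h and was also higher in control 12 h than in control 2 h, and D was 1.69 (1.64 to 1.75). TT5 (AT3G55120), chalcone isomerase, was at 27.2 RPKM with narciclasine against 45.3 in the control at 2 h, and 286 with narciclasine against 105 in the control at 12 h, with the largest D of the list, 2.15 (1.94 to 2.35).

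Later flavonol steps followed the same order of libraries. FLS1, flavonol synthase, was at 96.4 RPKM in narciclasine 2 h and 179 in control 2 h, and 638 RPKM in narciclasine 12 h and 283 in control 12 h, and D was 2.06 (1.96 to 2.15). UGT78D2, which adds a glucose to flavonols, had D 1.85 (1.71 to 2.00), and the coumarate CoA ligase 4CL3 had 1.90 (1.67 to 2.12). MYB12, the transcription factor that switches on early flavonol genes, was nearly equal at 2 h, at 42.6 RPKM in narciclasine 2 h and 40.9 in control 2 h, and at 90.8 RPKM in narciclasine 12 h and 41.8 in control 12 h. Its D of 1.04 (0.87 to 1.22) was the smallest of the list. Most enzymes were therefore below their control at 2 h while the regulator was not. The median change over time was 2.13 in the narciclasine libraries and 0.25 in the control libraries.

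Suberin genes also gained. Suberin is a polyester of long fatty acids, alcohols and phenolics laid down around endodermal cells, which seals them against uncontrolled flow. Of 14 genes 8 had D past 2-fold upward, all of them gained, and 1 downward. CYP86A1 (AT5G58860), a fatty acid hydroxylase of suberin monomers, was at 36.2 RPKM with narciclasine against 20.1 in the control at 2 h, and 238 with narciclasine against 52.6 in the control at 12 h. It was already somewhat higher with narciclasine at 2 h, and D was 1.34 (1.16 to 1.51). GPAT5, which joins acyl groups to glycerol, was at 7.72 RPKM in narciclasine 2 h and 8.63 in control 2 h, and 47.8 RPKM in narciclasine 12 h and 16.6 in control 12 h, and D was 1.61 (1.33 to 1.90). The exporter ABCG6 had the largest positive D of the list, 1.93 (1.75 to 2.11), with 111 RPKM in narciclasine 12 h and 43.7 in control 12 h. Levels of all 8 gained genes were higher in control 12 h than in control 2 h as well, and the median control change of the whole list was 0.87 beside 2.43 in the narciclasine libraries.

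One member of the suberin list went far the other way. CER4 (AT4G33790), a fatty acyl reductase that makes primary alcohols, was at 9.92 RPKM in narciclasine 2 h and 13.5 in control 2 h, and 0.597 RPKM in narciclasine 12 h and 43.4 in control 12 h. Narciclasine 12 h was the lowest library and control 12 h the highest, and D was -4.39 (-4.75 to -4.02). Its relatives FAR4 and FAR5, reductases of the same family, had D of 1.47 and 1.66. KCS20 and ASFT, an elongation enzyme and a feruloyl transferase, stayed within 2-fold at D of -0.015 and 0.39.

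Genes for making ribosomes gained a higher level. Ribosome biogenesis takes place mostly in the nucleolus, where ribosomal RNA is transcribed, trimmed, chemically modified and joined to proteins. Every one of the 22 measured genes had a positive D, and 15 were past 2-fold, all gained. The median ratio was 0.33 at 2 h and 1.63 at 12 h. REIL2 (AT2G24500), the counterpart of a yeast factor that matures the large subunit in the cytosol, was at 66.4 RPKM in narciclasine 2 h and 47.4 in control 2 h, and 220.0 RPKM in narciclasine 12 h and 33.6 in control 12 h. Narciclasine 12 h stood above the other libraries by a factor of several, and D was 2.19 (2.03 to 2.36).

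The nucleolar members of this list had smaller values of D than REIL2. NUC-L2, a nucleolin outside the list, had D 2.85 (2.41 to 3.30). FIB1, a fibrillarin that methylates ribosomal RNA, was at 187 RPKM with narciclasine against 147 in the control at 2 h, and 380.0 with narciclasine against 104 in the control at 12 h, and D was 1.51 (1.40 to 1.62). RID2, a methyltransferase needed for ribosomal RNA processing, had 62.8 RPKM in narciclasine 12 h and 11.2 in control 12 h, with D 1.69 (1.39 to 1.99). NOF1, a nucleolar factor, had D 1.56 (1.35 to 1.78). The median narciclasine change was 0.65 and the median control change -0.50, so levels in control 12 h were mostly below those in control 2 h. The control part was the larger one in 3 of the 15 genes past 2-fold. REIL1, the paralog of REIL2, had a D of 0.62.

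The wider translation and protein turnover machinery moved in the same direction by less. Ribosomal protein genes, 303 measured by product name, had a median ratio of -0.26 at 2 h and 0.28 at 12 h, and D was positive in 252. D was past 2-fold upward in 38 (12.5%), against 6.74% of all genes, and downward in 5 (1.65%), against 12.6%. The median control change of -0.47 was larger in size than the median narciclasine change of 0.078, and these transcripts were mostly lower in control 12 h than in control 2 h. Many ribosomal proteins have near-identical paralogs, and the sources used here do not say how shared reads were assigned.

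Among 90 translation factors, 14 (15.6%) had D past 2-fold upward, against 6.74% of all genes, and 3 (3.33%) downward, against 12.6%. Their median D was 0.50. EIF3E, a subunit of the initiation factor that loads the small ribosomal subunit, was at 98.9 RPKM in narciclasine 2 h and 99.9 in control 2 h, and 177 RPKM in narciclasine 12 h and 71.6 in control 12 h. Both 2 h libraries were level, and D was 1.31 (1.14 to 1.48). EIF3C and EIF3A, subunits of the same complex, had D of 1.28 and 1.11. Transfer RNA synthetases, which charge amino acids, had a median D of 0.59 over 51 genes. EMB1030, an alanyl-tRNA synthetase, stood apart from them at 9.25 RPKM in narciclasine 2 h and 1.55 in control 2 h, and 181 RPKM in narciclasine 12 h and 2.20 in control 12 h. Its levels with narciclasine exceeded both controls at each time, and D was 3.83 (3.50 to 4.15).

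The 26S proteasome, which degrades ubiquitin-tagged proteins, had 53 measured subunit genes. D was positive in 51 of them, with a median of 0.71. It was past 2-fold upward in 5 (9.43%), against 6.74% of all genes, and downward in 0. RPT3, an ATPase of its cap, was at 158 RPKM in narciclasine 2 h and 179 in control 2 h, and 342 RPKM in narciclasine 12 h and 178 in control 12 h. The library that differed was narciclasine 12 h, and D was 1.12 (1.03 to 1.20). These proteasome genes thus mostly shared a direction, while their share past 2-fold upward was near that of all genes.

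More fermentation and low-oxygen genes were past 2-fold upward than downward. Plants short of oxygen or of mitochondrial respiration regenerate NAD through lactate and ethanol fermentation. The list of 15 had a median D of 0.054, with 5 genes (33.3%) past 2-fold upward, against 6.74% of all genes. Another 2 (13.3%) were past 2-fold downward, near the 12.6% of all genes. In 2 of the 5 upward genes the control part was the larger. ADH1 (AT1G77120), alcohol dehydrogenase and the last step to ethanol, had the largest D among genes with a symbol and at least 5 RPKM in a library that gained a higher level. It was at 8.78 RPKM in narciclasine 2 h and 18.0 in control 2 h, and 34.4 RPKM in narciclasine 12 h and 2.31 in control 12 h. It was thus lower with narciclasine at 2 h and much higher at 12 h, and D was 4.38 (3.97 to 4.78). The control part, -2.52, was larger in size than the narciclasine part, 1.86.

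Pyruvate decarboxylase PDC1, one step before ADH1, was at 79.1 RPKM with narciclasine against 45.2 in the control at 2 h, and 136 with narciclasine against 30.2 in the control at 12 h, and D was 1.34 (1.20 to 1.49). The phytoglobin HB1, which scavenges nitric oxide, was at 22.1 RPKM in narciclasine 2 h and 11.7 in control 2 h, and 76.0 RPKM in narciclasine 12 h and 10.6 in control 12 h, and D was 1.87 (1.48 to 2.25). Lactate dehydrogenase AT4G17260 did the reverse, with 94.8 RPKM in narciclasine 2 h and 14.7 in control 2 h and 33.5 RPKM in narciclasine 12 h and 18.4 in control 12 h. Its 2 h difference was lost, and D was -1.78 (-2.04 to -1.52). HRE1, a low-oxygen ERF factor, likewise had D -1.08 (-1.58 to -0.58), whereas its relative HRE2 was kept higher at both times, at 114 RPKM in narciclasine 2 h and 5.03 in control 2 h, and 49.9 RPKM in narciclasine 12 h and 1.85 in control 12 h. RAP2.3, another ERF of the same group, lost a lower level, with D 1.56 (1.02 to 2.10). Here too the control part, -1.15, was larger in size than the narciclasine part, 0.41.

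Other genes that gained a higher level came from several functions. DREB19 (AT2G38340), a transcription factor of the drought-responsive DREB family, was at 1.25 RPKM in narciclasine 2 h and 0.461 in control 2 h, and 47.0 RPKM in narciclasine 12 h and 0.564 in control 12 h. It was near the filter in 3 of the libraries and present in narciclasine 12 h, and D was 4.31 (3.34 to 5.29). SCPL7, a serine carboxypeptidase-like protein, was at 0.0898 RPKM with narciclasine against 0 in the control at 2 h, and 16.7 with narciclasine against 0.162 in the control at 12 h, and D was 3.80 (3.47 to 4.14). CML41, a calmodulin-like calcium sensor, had D 3.64 (2.93 to 4.35), with 22.9 RPKM in narciclasine 12 h and 0.409 in control 12 h. ICL, isocitrate lyase of the glyoxylate cycle, was at 1.91 RPKM in narciclasine 2 h and 2.25 in control 2 h, and 23.9 RPKM in narciclasine 12 h and 1.86 in control 12 h, and D was 3.28 (2.84 to 3.72). LTP5, a lipid transfer protein of the cell wall, had D 3.42 (2.99 to 3.85), with a control change of -1.63.

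Detoxification families held members that moved far in both directions. Glutathione transferases and glucosyltransferases attach glutathione or sugar to foreign and internal compounds, and MATE carriers export them. Of 27 tau class glutathione transferases 8 (29.6%) had D past 2-fold upward, against 6.74% of all genes. Another 4 (14.8%) were past 2-fold downward, near the 12.6% of all genes. In 4 of the 8 upward genes the control part was the larger. ERD9, one of them, was further up at 12 h with D 2.40 (2.16 to 2.64), while GSTU14 was at 38.2 RPKM in narciclasine 2 h and 36.7 in control 2 h, and 1.02 RPKM in narciclasine 12 h and 40.6 in control 12 h. That member was abundant in every library except narciclasine 12 h, and D was -4.42 (-4.91 to -3.92). In the phi class, GSTF2 was at 131 RPKM with narciclasine against 169 in the control at 2 h, and 467 with narciclasine against 109.6 in the control at 12 h, and D was 2.44 (2.32 to 2.56).

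Of 19 UGT73, UGT74 and UGT76 glucosyltransferases 6 had D past 2-fold upward and 0 downward. DOGT1 (AT2G36800), which conjugates the fungal toxin deoxynivalenol and brassinosteroids, was at 17.7 RPKM in narciclasine 2 h and 0.210 in control 2 h, and 197 RPKM in narciclasine 12 h and 0.206 in control 12 h. Both controls were near 0, the difference was kept at both times, and D was 3.41 (3.06 to 3.76). The carrier DTX1, a MATE efflux transporter, was at 28.9 RPKM with narciclasine against 1.96 in the control at 2 h, and 75.4 with narciclasine against 0.491 in the control at 12 h, and D was 2.35 (1.91 to 2.78). The CYP81 monooxygenase CYP81D8 was kept higher but narrowed, at 126 RPKM in narciclasine 2 h and 3.85 in control 2 h, and 51.0 RPKM in narciclasine 12 h and 10.4 in control 12 h, and its D was -2.53 (-2.83 to -2.22).

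Several iron uptake genes were lower or level at 2 h and higher at 12 h. Roots short of iron reduce it at the surface with FRO2 and import it with IRT1, both under bHLH transcription factors. IRT1 (AT4G19690) was one of the 8 genes that reversed from lower to higher. It was at 5.38 RPKM in narciclasine 2 h and 15.5 in control 2 h, and 142 RPKM in narciclasine 12 h and 49.8 in control 12 h. Narciclasine 2 h was the lowest library and narciclasine 12 h the highest, and D was 2.86 (2.52 to 3.20). FRO2 was at 2.16 RPKM in narciclasine 2 h and 1.80 in control 2 h, and 22.0 RPKM in narciclasine 12 h and 6.81 in control 12 h, and D was 1.38 (1.00 to 1.76). The factors BHLH38 and BHLH39 had D of 1.71 and 1.06, whereas their partner FIT had -0.58. IRT1 and FRO2 were also higher in control 12 h than in control 2 h, by 1.62 and 1.48 on the log2 scale. Across all 17 nutrient transporters and regulators the median D was -0.086.

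Cell division genes gained a lower level. Mitosis is driven by cyclins of the A and B types with their kinases, and ends when the anaphase-promoting complex and its CDC20 activators destroy them. All 29 genes of the mitosis list had a negative D and 26 were past 2-fold, against 12.6% of all genes. The median ratio was -0.041 at 2 h and -1.58 at 12 h, so the list was level with its control at first. CYCB2;4 (AT1G76310), a mitotic cyclin, was at 9.95 RPKM in narciclasine 2 h and 7.40 in control 2 h, and 1.51 RPKM in narciclasine 12 h and 8.81 in control 12 h. The outlying library was narciclasine 12 h, and D was -2.35 (-2.82 to -1.88). CDC20.1 was at 10.6 RPKM with narciclasine against 13.1 in the control at 2 h, and 1.69 with narciclasine against 12.8 in the control at 12 h, and D was -2.08 (-2.46 to -1.70). CYCA2;3 and the paralog CDC20.2 had D of -2.06 and -2.12. CDC20.1 and CDC20.2 are close paralogs, so their reads may have been divided between them.

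The median control change of the mitosis list was -0.046 beside -1.57 in the narciclasine libraries. Other division lists moved less. DNA replication genes had a median D of -0.82 with 7 of 18 past 2-fold downward. PCNA1, the sliding clamp of the replication fork, was at 20.7 RPKM in narciclasine 2 h and 25.3 in control 2 h, and 5.70 RPKM in narciclasine 12 h and 19.9 in control 12 h, and D was -1.36 (-1.74 to -0.99). TSO2, a subunit of the enzyme that makes deoxynucleotides, had D -1.31 (-1.58 to -1.04). D-type cyclins, which act at entry to the cycle, had a median D of -0.97 with 2 of 9 past 2-fold.

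Kinesins, motor proteins of which several build the spindle and the division plane, had 11 of 27 past 2-fold downward and 0 upward. Histone genes, made mainly as DNA is copied, had a median ratio of 0.53 at 2 h and -0.11 at 12 h, with 14 of 43 past 2-fold downward. Their 2 h median was the highest of these division lists. Many histone genes are near-identical copies, so single members are uncertain. Inhibitors of cyclin-dependent kinases had a median D of 0.019. Among them SMR5, a stress-responsive inhibitor, was at 4.06 RPKM in narciclasine 2 h and 3.06 in control 2 h, and 32.6 RPKM in narciclasine 12 h and 5.61 in control 12 h, and D was 2.03 (0.89 to 3.17). Genes of the DNA damage response had a median D of -0.085, with GMI1 upward at 1.63.

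**Figure D3:**
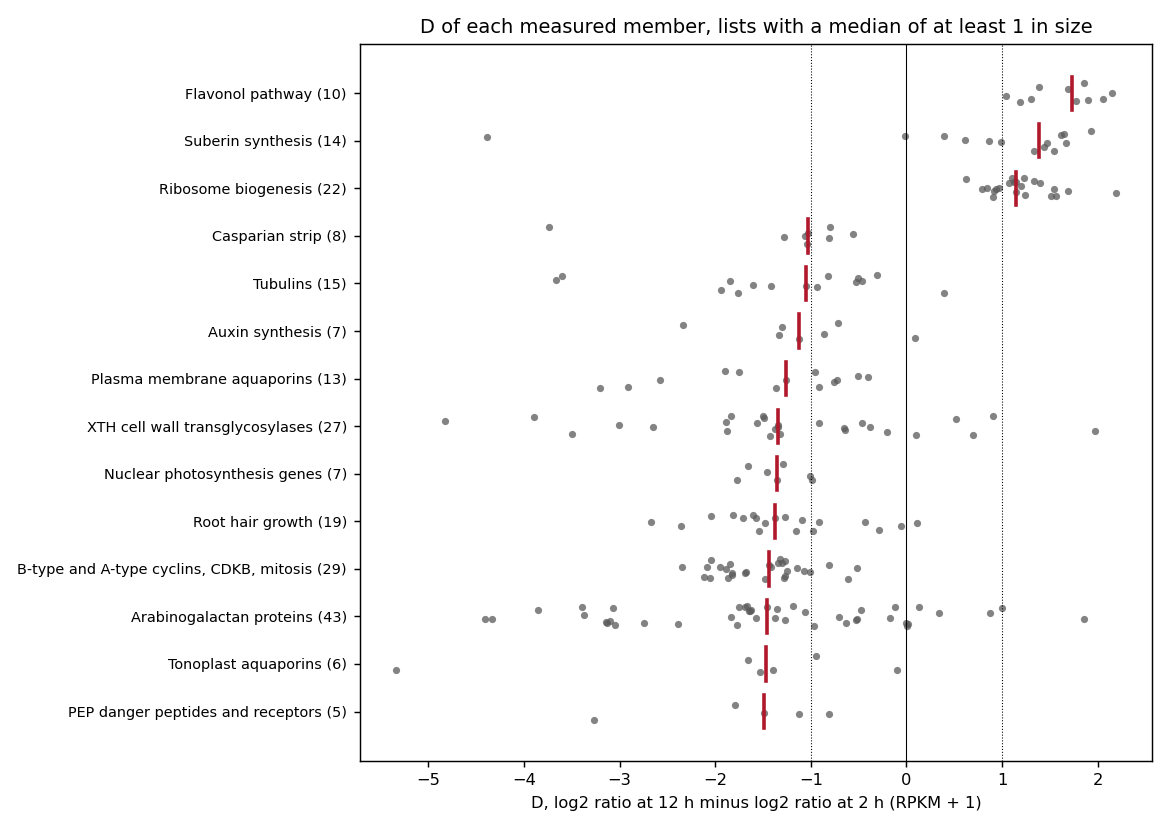
D of each measured member (points) of the 14 lists whose median D was past 2-fold, with the median as a red bar and dotted lines at 2-fold. All members of the flavonol and ribosome biogenesis lists lie above 0 and all members of the mitosis, Casparian strip, aquaporin, PEP and photosynthesis lists below it, while the suberin, tubulin, root hair, auxin synthesis, arabinogalactan and XTH lists each hold members on the other side.

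The cell wall and its skeleton went the same way as division. Arabinogalactan proteins are sugar-coated wall and surface proteins, and XTH enzymes cut and rejoin the xyloglucan that ties cellulose together. Of 43 arabinogalactan genes 27 had D past 2-fold downward, 24 of them gained, and the median ratio was 0.068 at 2 h and -1.39 at 12 h. AGP22 (AT5G53250) was at 344 RPKM in narciclasine 2 h and 240.5 in control 2 h, and 21.5 RPKM in narciclasine 12 h and 334 in control 12 h. It was abundant in every library except narciclasine 12 h, and D was -4.41 (-4.64 to -4.17). AGP30 and the fasciclin-like FLA13 had D of -4.33 and -3.85. AGP10 was the exception past 2-fold, at 129.9 RPKM with narciclasine against 90.3 in the control at 2 h, and 464 with narciclasine against 88.6 in the control at 12 h, and D was 1.85 (1.68 to 2.03).

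XTH genes had 16 of 27 past 2-fold downward and 1 upward, with a median ratio of 0.020 at 2 h and -1.11 at 12 h. XTH17 (AT1G65310) was at 61.9 RPKM in narciclasine 2 h and 85.4 in control 2 h, and 2.85 RPKM in narciclasine 12 h and 149 in control 12 h. Only narciclasine 12 h was low, and D was -4.82 (-5.17 to -4.48). In 2 of the 16 downward genes the control part was the larger. XTH15, XTH21 and XTH9 had D of -3.90, -3.49 and -3.00. XTH16 took another path, being higher at 2 h, at 52.6 RPKM in narciclasine 2 h and 20.5 in control 2 h, and not at 12 h, at 11.3 RPKM in narciclasine 12 h and 16.7 in control 12 h. It was one of the 2 members that lost a higher level.

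Expansins loosen walls without cutting them. Of 18 genes 6 had D past 2-fold downward and 2 upward, and the median control change was -0.59, so control 12 h was also below control 2 h for many members. EXPB1 had D -4.14 (-4.51 to -3.78) and EXPA15 -2.77 (-3.11 to -2.42), whereas EXPA10 was further up at 12 h, with D 2.72 (2.01 to 3.43). In EXPA10 the control part, -1.66, was larger in size than the narciclasine part, 1.06, and the same held for both upward expansins. BXL1, a xylosidase that trims wall polymers, was at 55.0 RPKM in narciclasine 2 h and 43.7 in control 2 h, and 1.28 RPKM in narciclasine 12 h and 65.3 in control 12 h. Its one low library was narciclasine 12 h, and D was -5.19 (-5.43 to -4.94). Cellulose synthase genes of the primary wall moved less, with a median D of -0.58. Of 9, 1 (11.1%) was past 2-fold downward, near the 12.6% of all genes.

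Tubulins form the microtubules that steer cellulose laying and pull chromosomes apart. Their median ratio was -0.22 at 2 h and -1.16 at 12 h, with 8 of 15 past 2-fold downward. TUB1 (AT1G75780) was at 120.2 RPKM in narciclasine 2 h and 151 in control 2 h, and 9.31 RPKM in narciclasine 12 h and 163 in control 12 h. It was plentiful in 3 libraries and scarce in narciclasine 12 h, and D was -3.66 (-3.86 to -3.47). TUB5 was close to it with D -3.60 (-3.83 to -3.37). Actins, the other filament family, had 3 of 7 past 2-fold downward, led by ACT11 with D -2.80 (-3.04 to -2.56). Members of both families have near-identical paralogs.

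Water channels were below their control at 2 h and further below it at 12 h. Aquaporins of the tonoplast (TIP) and of the plasma membrane (PIP) let water through the membranes of enlarging cells. The 6 tonoplast genes had a median ratio of -0.69 at 2 h and -2.10 at 12 h. TIP2;1 (AT3G16240) had the most negative D among genes with a symbol. It was at 161 RPKM in narciclasine 2 h and 319 in control 2 h, and 3.91 RPKM in narciclasine 12 h and 393 in control 12 h. It was already lower with narciclasine at 2 h and lowest by far in narciclasine 12 h, and D was -5.34 (-5.63 to -5.05). Its close relative TIP2;2 was at 507 RPKM with narciclasine against 806 in the control at 2 h, and 565 with narciclasine against 959.6 in the control at 12 h, with a D of -0.10 (-0.16 to -0.038). The family was therefore uneven, with 4 of 6 past 2-fold downward.

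Plasma membrane aquaporins had a median ratio of -0.34 at 2 h and -1.89 at 12 h, and all 13 had a negative D, 7 of them past 2-fold and 2 of those with the larger part in the controls. PIP2;4 was at 110.1 RPKM in narciclasine 2 h and 139.8 in control 2 h, and 20.5 RPKM in narciclasine 12 h and 251 in control 12 h. Control 12 h was its highest library and narciclasine 12 h its lowest, and D was -3.21 (-3.38 to -3.03). PIP1;3 and PIP2;7 had D of -2.91 and -2.57. The median control change was 0.31 for tonoplast and 0.27 for plasma membrane genes, so both parts of D pointed the same way.

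Differentiation of the outer and inner root layers was described by the root hair and Casparian strip lists. Root hairs are outgrowths of single epidermal cells, started by bHLH factors of the RSL group and built with specialised wall proteins. Of 19 root hair genes 13 had D past 2-fold downward, 12 of them gained. The median ratio was -0.10 at 2 h and -1.37 at 12 h. RSL2 (AT4G33880) was at 36.8 RPKM in narciclasine 2 h and 28.5 in control 2 h, and 6.10 RPKM in narciclasine 12 h and 34.4 in control 12 h, and D was -2.67 (-2.97 to -2.38). The peroxidase AT4G26010 of that list was at 287 RPKM with narciclasine against 256 in the control at 2 h, and 51.9 with narciclasine against 241 in the control at 12 h, and D was -2.36 (-2.47 to -2.24). The wall protein PRP1 and the expansin EXPA7 had D of -1.82 and -1.71. Genes that pattern hair and non-hair cells earlier had a median D of -0.37, with 4 of 11 past 2-fold downward.

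The Casparian strip is the lignin band that seals the endodermis before suberin is laid down. All 8 of its genes had a negative D and 5 were past 2-fold. CASP5 (AT5G15290), one of the membrane proteins that place the band, was at 41.6 RPKM in narciclasine 2 h and 57.5 in control 2 h, and 2.84 RPKM in narciclasine 12 h and 69.7 in control 12 h, and D was -3.74 (-4.15 to -3.34). CASP1 and CASP2, of the same family, stayed within 2-fold at D of -0.81 and -0.80. PER64, the peroxidase of the band, and MYB36, its transcription factor, had D of -1.06 and -1.04. The median D of the Casparian strip list was -1.03 and that of the suberin list 1.39, although 2 of the 14 suberin genes had a negative D. The endodermal factor SCR had a D of 0.010.

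Vascular genes moved less as groups. Xylem and secondary wall genes had a median D of -0.70, with 2 of 11 (18.2%) past 2-fold downward, against 12.6% of all genes. Phloem genes had a median of -0.090, with 4 of 10 (40%) downward. The sucrose exporters SWEET11 and SWEET12 had D of -3.34 and -2.66. SUC2, which loads sucrose into the phloem, was at 14.6 RPKM in narciclasine 2 h and 9.63 in control 2 h, and 3.47 RPKM in narciclasine 12 h and 7.32 in control 12 h, whereas the phloem identity factor APL was at 8.75 RPKM with narciclasine against 6.44 in the control at 2 h, and 9.06 with narciclasine against 5.55 in the control at 12 h.

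Several auxin synthesis and transport genes gained a lower level. Auxin made from tryptophan through TAA1 and YUC enzymes is moved by AUX/LAX importers and PIN and ABCB exporters. Auxin synthesis had a median ratio of 0.35 at 2 h and -1.15 at 12 h, with 4 of 7 past 2-fold downward. YUC3 (AT1G04610) was at 15.2 RPKM in narciclasine 2 h and 11.6 in control 2 h, and 3.99 RPKM in narciclasine 12 h and 18.7 in control 12 h, and D was -2.34 (-2.67 to -2.00). YUC9 and TAA1 had D of -1.34 and -1.30. Transport had 7 of 15 past 2-fold downward, with LAX3 at 51.2 RPKM with narciclasine against 50.2 in the control at 2 h, and 11.8 with narciclasine against 41.2 in the control at 12 h and D -1.75 (-1.96 to -1.54). LAX2, ABCB19 and PIN7 had D of -2.21, -1.58 and -1.42. PIN2 had 0.17, and the carrier ABCB4 was kept higher at both times, at 561 RPKM in narciclasine 2 h and 118 in control 2 h, and 472 RPKM in narciclasine 12 h and 131 in control 12 h.

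Auxin-responsive repressors of the Aux/IAA family had 10 of 25 past 2-fold downward and 0 upward, with a median ratio of 0.34 at 2 h and -0.32 at 12 h. IAA3 led them with D -2.10 (-2.56 to -1.65). SAUR genes, small early auxin targets, had a median D of -0.72, with 13 of 34 past 2-fold downward and 1 upward. GH3 and LBD targets had a median D of -0.63. The 2 h medians of the repressors and of SAUR genes were slightly positive and their 12 h medians negative.

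Other hormone lists had median values of D within 2-fold. Among 17 gibberellin genes 6 were past 2-fold downward and 2 upward. GASA4 (AT5G15230), a small cysteine-rich peptide of the gibberellin response, was at 577 RPKM in narciclasine 2 h and 766 in control 2 h, and 15.8 RPKM in narciclasine 12 h and 532 in control 12 h, and D was -4.58 (-4.82 to -4.34). GA2OX2, which inactivates gibberellin, was kept higher and further up at 12 h, at 119 RPKM in narciclasine 12 h and 2.45 in control 12 h, with D 2.92 (2.44 to 3.41). The ethylene synthesis genes ACS5 and ACO5 had D of -3.01 and -1.92, whereas ACO4 had 1.19 (0.95 to 1.42). The median over 10 was -0.78. Of these, 3 (30%) were past 2-fold downward and 1 (10%) upward, against 12.6% and 6.74% of all genes. DWF1, an enzyme of brassinosteroid synthesis, was at 312 RPKM in narciclasine 2 h and 384 in control 2 h, and 72.9 RPKM in narciclasine 12 h and 266 in control 12 h, and D was -1.55 (-1.64 to -1.47), while the brassinosteroid list as a whole had a median of 0.12.

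Small peptides had some of the largest values of D. CLE5, of the CLE signalling family, was at 56.0 RPKM in narciclasine 2 h and 66.0 in control 2 h, and 0.497 RPKM in narciclasine 12 h and 59.1 in control 12 h, and D was -5.09 (-5.62 to -4.57). PDF2.5, a defensin, was at 111 RPKM with narciclasine against 159 in the control at 2 h, and 1.84 with narciclasine against 99.0 in the control at 12 h, and D was -4.62 (-5.42 to -3.83). RGF2, a peptide that maintains the root meristem, had D -2.35 (-3.02 to -1.68). RGF1 lost a higher level, with D -1.61 (-2.57 to -0.66). PLT3, a transcription factor of root stem cells, had an upward D, at 32.1 RPKM in narciclasine 2 h and 18.9 in control 2 h, and 50.6 RPKM in narciclasine 12 h and 8.34 in control 12 h, with D 1.73 (1.49 to 1.96). There the control part, -1.09, was larger in size than the narciclasine part, 0.64. The list of root meristem regulators had a median D of -0.33 and 2 genes past 2-fold upward, both with the larger part in the controls, beside 2 downward.

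Some early stress signalling genes lost a higher level. ERF factors bind the promoters of wound, ethylene and defence genes and are usually induced within an hour of a stimulus. Of 14 stress ERFs 5 were past 2-fold higher at 2 h and not at 12 h, with D past 2-fold downward. ERF2 (AT5G47220) was at 15.3 RPKM in narciclasine 2 h and 1.86 in control 2 h, and 14.8 RPKM in narciclasine 12 h and 9.19 in control 12 h. Both narciclasine libraries were alike and control 12 h lay above control 2 h, so that D was -1.88 (-2.39 to -1.38) with a control change of 1.83. ERF5 was at 105 RPKM with narciclasine against 45.5 in the control at 2 h, and 59.8 with narciclasine against 84.0 in the control at 12 h, and D was -1.67 (-1.84 to -1.51). ERF6, ERF105 and ERF1A, of the same family, had D of -1.37, -1.40 and -1.14. In all 5 of these losses the control part was the larger, and the median change of the list was 0.15 in the narciclasine libraries and 0.96 in the control libraries.

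PEP genes showed the same arrangement. PROPEP genes encode precursors of danger peptides that the PEPR receptors sense after wounding or attack. PROPEP2 (AT5G64890) was at 27.2 RPKM in narciclasine 2 h and 4.12 in control 2 h, and 9.19 RPKM in narciclasine 12 h and 16.9 in control 12 h. Its highest library was narciclasine 2 h and its lowest control 2 h, and D was -3.27 (-3.84 to -2.70). The control part was 1.80 and the narciclasine part -1.47. PROPEP3 had D -1.80 (-2.21 to -1.39), and of 5 genes 4 were past 2-fold downward, all 4 with the larger part in the controls.

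WRKY factors regulate defence and stress genes in large numbers. Of 59 members 12 (20.3%) had D past 2-fold downward, against 12.6% of all genes, and 7 (11.9%) upward, against 6.74%. In 5 of the 12 downward members the control part was the larger. By class 7 lost a higher level, 6 gained one and 4 kept one, against 1.17%, 4.83% and 1.39% of all genes. WRKY30 (AT5G24110) was at 14.4 RPKM in narciclasine 2 h and 2.56 in control 2 h, and 2.16 RPKM in narciclasine 12 h and 2.94 in control 12 h, and D was -2.43 (-2.98 to -1.88). Its controls were alike, so the loss lay in the narciclasine libraries. WRKY33, a regulator of camalexin genes, was at 159 RPKM with narciclasine against 49.6 in the control at 2 h, and 148 with narciclasine against 151 in the control at 12 h. There both narciclasine libraries were alike, control 12 h had reached the same level, and D was -1.69 (-1.80 to -1.58). WRKY53 and WRKY54 had D of -2.02 and -2.08, with control changes of 1.40 and 0.21, while WRKY43 was further up with D 1.96 (1.08 to 2.83).

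Some kinases and regulators of stress responses also lost a higher level. OXI1, a kinase activated by reactive oxygen, was at 185 RPKM in narciclasine 2 h and 54.5 in control 2 h, and 106 RPKM in narciclasine 12 h and 83.2 in control 12 h, and D was -1.39 (-1.52 to -1.26). MKK9, a MAP kinase kinase, and CML38, a calmodulin-like protein, had D of -1.40 and -1.30. The control part was the larger in both, 0.74 for MKK9 and 1.01 for CML38, beside narciclasine parts of -0.66 and -0.29. Their list of 11 touch, calmodulin-like and MAP kinase genes had a median D of 0.12, with D positive in 6. Of the 11, 3 (27.3%) were past 2-fold downward, against 12.6% of all genes, and 1 (9.09%) upward, against 6.74%. MYB51, a regulator of indole glucosinolates, was at 40.0 RPKM with narciclasine against 8.90 in the control at 2 h, and 19.5 with narciclasine against 17.9 in the control at 12 h, and D was -1.94 (-2.32 to -1.55). Of the 13 camalexin and indole glucosinolate genes 5 were past 2-fold downward, 3 of them with the larger part in the controls. PAD3, the last enzyme of camalexin synthesis, was the 1 gene past 2-fold upward, at 14.9 RPKM in narciclasine 2 h and 7.42 in control 2 h, and 66.0 RPKM in narciclasine 12 h and 6.64 in control 12 h, with D 2.21 (1.89 to 2.54). TCH3, a touch-induced calmodulin-like gene, was kept higher and further up at 12 h, with D 2.34 (2.14 to 2.54).

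ERF15, of the ERF family but in no list here, was at 15.2 RPKM in narciclasine 2 h and 3.58 in control 2 h, and 6.31 RPKM in narciclasine 12 h and 10.6 in control 12 h, and D was -2.48 (-3.01 to -1.96). PUP18, a purine permease, was at 110.3 RPKM with narciclasine against 37.2 in the control at 2 h, and 52.5 with narciclasine against 91.0 in the control at 12 h, and D was -2.33 (-2.49 to -2.17). The control part was the larger in both, 1.34 for ERF15 and 1.27 for PUP18. LECRKA4.2, a lectin receptor kinase, and P1R3, an uncharacterized protein, had D of -2.23 and -2.58. Jasmonate repressors of the JAZ group had a median D of -0.46 and a median control change of 0.69. Of 13, 1 (7.69%) was past 2-fold downward, against 12.6% of all genes. Jasmonate synthesis genes had a median D of -0.10.

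Of 16 measured genes of the cytosolic heat shock response, 7 lost a lower level. Heat shock factors such as HSFA2 switch on HSP90, HSP70 and small HSP genes, whose products hold unfolded proteins. The list had a median ratio of -1.29 at 2 h and -0.19 at 12 h, with 8 past 2-fold upward in D and 2 that kept a lower level. HSP90.1 (AT5G52640) was at 11.2 RPKM in narciclasine 2 h and 51.0 in control 2 h, and 16.4 RPKM in narciclasine 12 h and 13.7 in control 12 h. Control 2 h was the one high library, and D was 2.34 (2.11 to 2.56). HSP70 was at 28.1 RPKM with narciclasine against 78.0 in the control at 2 h, and 44.6 with narciclasine against 44.0 in the control at 12 h, and D was 1.46 (1.31 to 1.61). The small heat shock gene AT1G07400 was at 1.63 RPKM in narciclasine 2 h and 21.9 in control 2 h, and 2.33 RPKM in narciclasine 12 h and 2.48 in control 12 h, again high in control 2 h alone, and D was 3.06 (2.35 to 3.77).

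The regulator HSFA2 kept a lower level at both times but by less at 12 h, at 1.70 RPKM in narciclasine 2 h and 30.1 in control 2 h, and 2.56 RPKM in narciclasine 12 h and 6.64 in control 12 h, and D was 2.43 (1.94 to 2.91). ROF2, a partner of HSFA2, kept its difference in full, with D -0.030 (-0.34 to 0.28). For 7 of the 8 genes past 2-fold the control part was the larger. The median change of the list was 0.082 in the narciclasine libraries and -0.83 in the control libraries. For HSP90.1 and AT1G07400 the narciclasine libraries of both times and control 12 h lay close together.

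**Figure D4:**
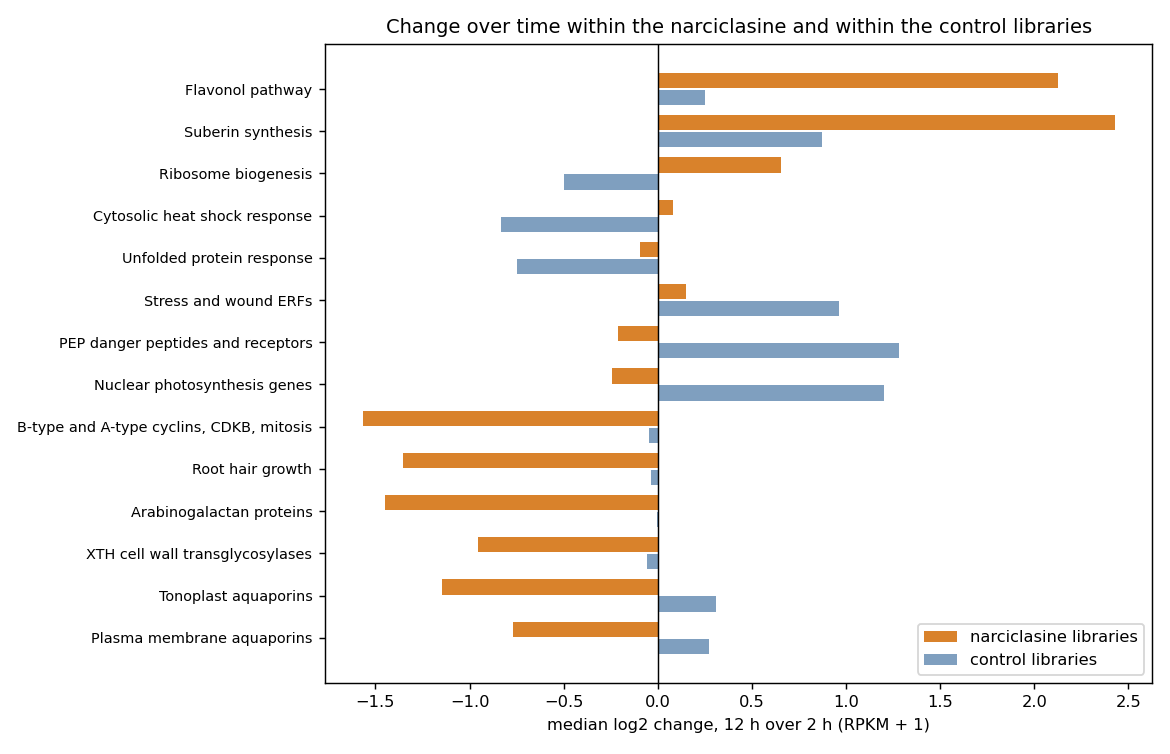
Median change from 2 h to 12 h (log2, RPKM + 1) for 14 chosen lists, in the narciclasine (orange) and control (blue) libraries. The heat shock, unfolded protein response and stress ERF lists are drawn although their median D stayed within 2-fold. The tubulin, Casparian strip and auxin synthesis lists, whose median D was past 2-fold, are not drawn. The narciclasine bar is the longer for division, wall, hair, aquaporin, ribosome biogenesis, flavonol and suberin lists. The control bar is the longer for the PEP (1.28), photosynthesis (1.20), stress ERF (0.96), heat shock (-0.83) and unfolded protein response (-0.75) lists.

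Many genes of the unfolded protein response of the endoplasmic reticulum kept a lower level. Its chaperones BIP, calnexin and calreticulin fold secreted proteins. Of 19 genes 10 were past 2-fold lower at both times, and the median ratio was -1.40 at 2 h and -1.11 at 12 h. BIP2 was at 145 RPKM in narciclasine 2 h and 450.2 in control 2 h, and 82.3 RPKM in narciclasine 12 h and 225 in control 12 h, and D was 0.19 (0.11 to 0.27). The co-chaperone ERDJ3A (AT3G08970) lost its lower level, at 2.10 RPKM with narciclasine against 16.0 in the control at 2 h, and 7.07 with narciclasine against 4.71 in the control at 12 h, with D 2.95 (2.56 to 3.34), as did TIN1 with D 1.23 (0.68 to 1.77). Of 5 genes with D past 2-fold upward, 4 had the larger part in the controls. For ERDJ3A the control part, -1.57, was larger in size than the narciclasine part, 1.38, and for TIN1 the parts were -0.97 and 0.26. BZIP60, a transcription factor of this response, was higher at both times, at 179 RPKM in narciclasine 2 h and 39.4 in control 2 h, and 121 RPKM in narciclasine 12 h and 45.0 in control 12 h, and D was -0.75 (-0.93 to -0.57). The factor NAC103 gained a higher level with D 1.83 (1.32 to 2.35). At 12 h the 10 genes with a kept lower level were therefore below their control, and BZIP60 and NAC103 were above theirs. ERDJ3A was also above its control at 12 h.

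Abscisic acid genes took several paths. Abscisic acid restrains growth under drought, and HB-7 and HB-12 are homeobox factors that respond to it. The list of 20 had a median D of -0.17, with 4 (20%) past 2-fold upward, against 6.74% of all genes. Another 2 (10%) were past 2-fold downward, near the 12.6% of all genes. HB-7 was at 7.67 RPKM in narciclasine 2 h and 45.8 in control 2 h, and 25.7 RPKM in narciclasine 12 h and 43.9 in control 12 h, and D was 1.68 (1.40 to 1.96). HB-12 and the phosphatase HAI1 likewise lost a lower level, with D of 1.75 and 1.13. Their control libraries were close, so narciclasine 2 h was the low one. ABI5, a transcription factor, gained a higher level, with 11.5 RPKM in narciclasine 12 h and 1.47 in control 12 h and D 2.39 (1.86 to 2.91). The dehydrin RAB18 (AT5G66400) moved further down, at 7.0 RPKM with narciclasine against 18.7 in the control at 2 h, and 1.87 with narciclasine against 35.5 in the control at 12 h, and D was -2.37 (-2.88 to -1.85).

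Other genes that lost a lower level were NIA1, AFP1 and BGLU28. NIA1, nitrate reductase, was at 15.8 RPKM in narciclasine 2 h and 43.7 in control 2 h, and 96.4 RPKM in narciclasine 12 h and 57.8 in control 12 h, and D was 2.14 (2.00 to 2.28). AFP1, a protein that binds ABI5, was at 5.65 RPKM with narciclasine against 18.0 in the control at 2 h, and 20.2 with narciclasine against 13.9 in the control at 12 h, and D was 2.02 (1.69 to 2.36). BGLU28, a beta-glucosidase, was at 2.16 RPKM in narciclasine 2 h and 11.6 in control 2 h, and 0.313 RPKM in narciclasine 12 h and 0.259 in control 12 h. Its difference was lost as both 12 h libraries came close to 0, and D was 2.05 (1.62 to 2.49) with a control change of -3.32.

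The 38 reversed genes included 30 that were higher at 2 h and lower at 12 h. PER4 (AT1G14540), a class III peroxidase, was the most abundant of those named. It was at 228 RPKM in narciclasine 2 h and 65.8 in control 2 h, and 20.6 RPKM in narciclasine 12 h and 84.7 in control 12 h. Narciclasine 2 h was its highest library and narciclasine 12 h its lowest, and D was -3.77 (-3.95 to -3.58). OCT3, an organic cation transporter, was at 22.5 RPKM with narciclasine against 5.95 in the control at 2 h, and 0.683 with narciclasine against 5.12 in the control at 12 h, and D was -3.62 (-4.04 to -3.20). The sulfotransferase ST4C was at 21.5 RPKM in narciclasine 2 h and 6.89 in control 2 h, and 0.381 RPKM in narciclasine 12 h and 5.53 in control 12 h, and D was -3.76 (-4.23 to -3.28). Both kept similar controls across the times.

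IPT5, which makes cytokinin, was at 18.7 RPKM in narciclasine 2 h and 7.20 in control 2 h, and 1.38 RPKM in narciclasine 12 h and 6.51 in control 12 h, and D was -2.93 (-3.36 to -2.49). ACS2, an ethylene synthesis enzyme, was at 20.1 RPKM with narciclasine against 4.78 in the control at 2 h, and 3.05 with narciclasine against 7.55 in the control at 12 h, and D was -2.95 (-3.33 to -2.56). PLC9, of the phospholipase C family, had D -2.79 (-3.19 to -2.39). PUB29, a U-box ubiquitin ligase, was at 28.6 RPKM in narciclasine 2 h and 8.83 in control 2 h, and 8.04 RPKM in narciclasine 12 h and 23.7 in control 12 h, and D was -3.04 (-3.36 to -2.72), with a control change of 1.33. Over the 30 genes the median narciclasine change was -2.57 and the median control change 0.33, and the control part was the larger in 1. The class III peroxidases as a family had 19 of 52 past 2-fold downward and 8 upward, with 2 of them reversed.

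Only 8 genes reversed from lower to higher. Besides IRT1, the rule for named genes took Fes1A, a relative of the yeast exchange factor for Hsp70. Fes1A was at 13.2 RPKM in narciclasine 2 h and 32.6 in control 2 h, and 24.1 RPKM in narciclasine 12 h and 10.7 in control 12 h, and D was 2.35 (2.07 to 2.63). For Fes1A the control part, -1.52, was larger in size than the narciclasine part, 0.83. Over these 8 genes the median narciclasine change was 2.13 and the median control change -0.72. The interval of D left 0 outside it for 7 of the 8, and for all 30 of the other reversals. The rule for reversal already places D far from 0, so these counts are no check on the reversals.

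Most mitochondrial retrograde signalling genes kept a higher level at both times. Retrograde signalling reports impaired respiration to the nucleus through membrane-bound NAC factors, and raises alternative oxidase and dehydrogenases that bypass proton pumping. Of 14 genes 9 were past 2-fold higher at both times, and of 8 alternative oxidase and dehydrogenase genes 4 were. The median ratio of the retrograde list was 2.60 at 2 h and 2.84 at 12 h. AOX1A (AT3G22370) was at 509 RPKM in narciclasine 2 h and 61.0 in control 2 h, and 449 RPKM in narciclasine 12 h and 81.1 in control 12 h. Both narciclasine libraries stood far above both controls, and D was -0.59 (-0.70 to -0.48). UGT74E2, which glucosylates an auxin precursor, was at 602 RPKM with narciclasine against 75.3 in the control at 2 h, and 1267 with narciclasine against 36.3 in the control at 12 h, and D was 2.10 (1.97 to 2.23). The factor NAC013 had D -0.13 (-0.40 to 0.15), and the mitochondrial ATPase BCS1 had -0.79 (-0.96 to -0.62). NAC016 gained a higher level, with D 1.68 (1.17 to 2.18).

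NDB4, an alternative NADH dehydrogenase, was at 23.4 RPKM in narciclasine 2 h and 0.190 in control 2 h, and 108 RPKM in narciclasine 12 h and 0.0465 in control 12 h. It was nearly absent from both controls, the difference was kept, and D was 2.35 (2.08 to 2.62). NDA1, of the same group, had D 1.69 (1.26 to 2.12). AT5G09570 was listed at 0 in control 12 h and was at 46.2 RPKM in narciclasine 12 h. NUC-L2, a nucleolin, was at 3.31 RPKM with narciclasine against 1.15 in the control at 2 h, and 29.3 with narciclasine against 1.08 in the control at 12 h, and D was 2.85 (2.41 to 3.30). In all, 70 of the 344 genes with a kept difference had D past 2-fold upward and 27 downward.

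**Figure D5:**
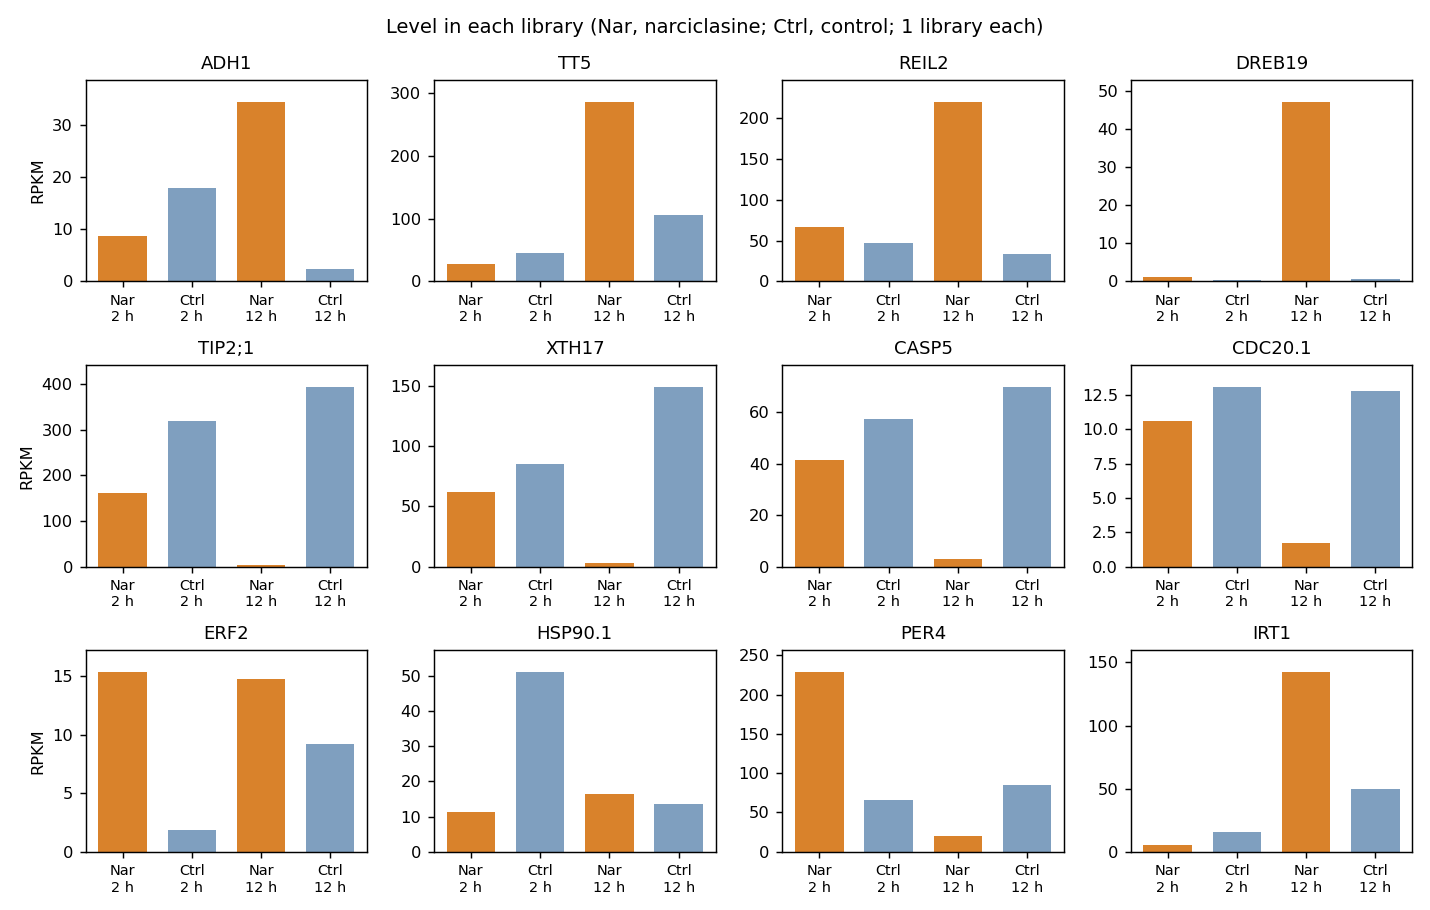
RPKM of 12 genes in the 4 libraries, with narciclasine left of control at 2 h and again at 12 h, 1 library a bar and no error bars. ADH1, TT5, REIL2, DREB19 and IRT1 are highest in narciclasine 12 h, TIP2;1, XTH17, CASP5 and CDC20.1 are lowest there, ERF2 and HSP90.1 differ mainly between their control bars, and PER4 is highest in narciclasine 2 h and lowest in narciclasine 12 h.

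Photosynthesis genes were weakly expressed and gained a lower level, with the larger change in their controls. Of 7 measured nuclear genes 6 had D past 2-fold downward, and in 5 of these the control part was the larger. LHCB1.3, a light-harvesting protein, was at 3.16 RPKM in narciclasine 2 h and 6.98 in control 2 h, and 1.89 RPKM in narciclasine 12 h and 17.9 in control 12 h. Control 12 h was the high library, and D was -1.77 (-2.32 to -1.22). RCA, rubisco activase, was at 6.92 RPKM with narciclasine against 9.17 in the control at 2 h, and 6.58 with narciclasine against 23.9 in the control at 12 h, with a narciclasine change of -0.062 and a control change of 1.29. RBCS1A, the rubisco small subunit, was at 1.10 RPKM in narciclasine 2 h and 1.48 in control 2 h, and 0.532 RPKM in narciclasine 12 h and 4.69 in control 12 h. These are the markers of shoot tissue checked here, and whether more green tissue in control 12 h took part in the values was not tested. Chloroplast-encoded genes, 36 measured, had a median D of -0.13. Of these, 3 (8.33%) were past 2-fold downward, fewer than the 12.6% of all genes.

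Some lists had median values of D near 0. None of 16 circadian clock genes had D past 2-fold, and values ranged from -0.46 to 0.94. Root cap factors had a median D of 0.070 over 4 genes, none past 2-fold. Pentatricopeptide repeat genes, which edit and stabilise organelle RNA, had a median D of 0.21. Of 190, 5 (2.63%) were past 2-fold upward, against 6.74% of all genes. Mitochondrion-encoded genes had a median D of -0.026, but 4 of 18 (22.2%) were past 2-fold downward, against 12.6% of all genes. Cytokinin genes had a median of -0.36 with 4 of 18 (22.2%) downward, 2 of them with the larger part in the controls. Ethylene signalling genes had a median of -0.33 with 2 of 13 (15.4%) downward. Genes of reactive oxygen metabolism had a median of -0.43. Of the 16, 2 (12.5%) were downward and 1 (6.25%) upward, near the 12.6% and 6.74% of all genes.

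Late embryogenesis abundant genes had 7 of 32 (21.9%) past 2-fold upward, against 6.74% of all genes, and 4 (12.5%) downward, against 12.6%, with a median D of -0.20. In 4 of the 7 upward genes the control part was the larger. Of 9 DREB and CBF factors 2 were past 2-fold upward, DREB19 and DREB2B, the second kept higher at both times with D 2.04 (1.34 to 2.75). The 3 measured galactinol synthases, which start the synthesis of raffinose sugars, all had a positive D, and 1 was past 2-fold, with the larger part in the controls.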

How the data were processed

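Root tip RNA was sequenced on the Illumina platform with 1 library a group, per the labels. The deposited values are RPKM, which the authors computed per gene before deposit, per the file headers. Tools listed in the submitters' processing notes are Bowtie 0.12.2 and edgeR, with mm8 as the genome build. Since mm8 is a mouse build and the table holds Arabidopsis loci, the build is unclear, and no coordinates or sequences are given. Neither the counting rule nor the handling of strand is given in the sources used here. Paralogs, overlapping and antisense genes are therefore uncertain.

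From the deposited RPKM, D and both ratios were computed on log2(RPKM + 1) for genes with at least 1 RPKM in any library, with Python 3.11.15, numpy 2.4.6 and pandas 2.3.3. Symbols and products came from RefSeq TAIR10.1, in which 32835 of 33602 identifiers matched. Reads were recovered from the steps of the values for 22816 of 22816 genes above 0 in at least 2 libraries, with whole lengths within 0.02 bases, and another 1580 genes were above 0 in 1 library. They served for depth and for the counting interval of D, a normal approximation with z 1.96. Genes held 97.5% to 98.0% of the reads of each library. The single-library files equal the table within 4.95e-07 RPKM. The calculation was checked on simulated data.

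No test was made, since 1 library a group leaves no replicate error. The members and the 45 lists and 23 families were chosen with earlier results of these data known, and 585 of 639 listed genes were measured. The rule for named genes took coding genes with a symbol and at least 5 RPKM in a library. It took the 6 with the largest D of each gained and lost class, the 6 most reversed each way, the 4 with the largest D of each kept class, and up to 4 per list with D past 2-fold. Other genes named were chosen after their values were seen. Alternatives were the pseudocount, the filter, the threshold, 2 rescalings of the libraries, a requirement that the counting interval leave out 0, and the mean of both controls in place of the control of each time.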

Additional observations from a re-analysis of the deposited data

Results flagged for a closer look

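In 10 genes named here the narciclasine difference was past 2-fold one way at 2 h and past 2-fold the other way at 12 h. With 1 library a group, the difference between the times was not tested. It was higher at 2 h and lower at 12 h for PER4 (D -3.77), ST4C (D -3.76), OCT3 (D -3.62), PUB29 (D -3.04), ACS2 (D -2.95), IPT5 (D -2.93), PLC9 (D -2.79) and the peroxidase gene AT1G14550 (D -5.45). It was lower at 2 h and higher at 12 h for IRT1 (D 2.86) and Fes1A (D 2.35).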

How the results depend on the processing

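As reported, 1305 genes had D of at least 1, 2433 had D of at most -1, and 2535 gained, 288 lost and 38 reversed a difference. In the same order these counts were 3472, 4623, 5277, 794 and 303 with a 1.5-fold threshold and 151, 440, 338, 25 and 1 with a 4-fold threshold. With a pseudocount of 5 RPKM they were 620, 1122, 1150, 135 and 5. With a pseudocount of 0.1 RPKM 161 genes reversed, and with the mean of both controls at both times 63 did. No filter, a filter of 5 RPKM, both rescalings and the interval requirement left all 5 counts within 1.5 times. The 14 lists with a median D past 2-fold kept its sign under every alternative, and 6 of them stayed past 2-fold throughout. With the mean control 6 came under it, at 0.65 for ribosome biogenesis, -0.21 for PEP peptides, -0.24 for photosynthesis, -0.82 for the Casparian strip, -0.77 for plasma membrane aquaporins and -0.95 for XTH enzymes. With the pseudocount of 5 these were 4, at -0.87 for mitosis, -0.64 for auxin synthesis, -0.96 for the Casparian strip and -0.85 for photosynthesis. With no filter they were 3, at -0.39 for auxin synthesis, -0.99 for photosynthesis and -0.92 for XTH enzymes. Of 221 named genes with D past 2-fold, 212 kept its sign throughout. The other 9 changed it with the mean control, to -1.27 for BGLU28, 0.34 for ERF1A, 0.32 for ERF6, 0.56 for ICS2, 0.49 for IGMT1, -0.14 for LEA4-5, 1.11 for LOX4, -0.21 for LTI30 and -0.036 for UTR1. That setting leaves out the difference between both control libraries by its construction. Rescaling factors were 0.970 to 1.03, and the median D was -0.036 as deposited and -0.024 and -0.037 rescaled. No paired analysis was possible because each group holds 1 library and no result comes from a test. Leaving out a replicate was likewise not possible. Depth limits low genes: in the class that lost a lower level the counting interval left out 0 for 45 of 61 genes, against 1561 of 1600 that gained one.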

Other observations

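Some of the most extreme values of D belonged to genes that have a locus identifier and no symbol in the annotation. They were chosen here after their values were seen. The lipid-transfer family protein gene AT5G46890 was at 239.8 RPKM in narciclasine 2 h and 278 in control 2 h, and 5.58 RPKM in narciclasine 12 h and 489.7 in control 12 h, and D was -6.01 (-6.36 to -5.66). The related gene AT5G46900 was at 239 RPKM in narciclasine 2 h and 243 in control 2 h, and 6.58 RPKM in narciclasine 12 h and 483 in control 12 h, and D was -5.97 (-6.41 to -5.53). AT4G12510, of the same protein family, was at 67.2 RPKM in narciclasine 2 h and 79.2 in control 2 h, and 2.39 RPKM in narciclasine 12 h and 123 in control 12 h, and D was -4.96 (-5.44 to -4.47). In all 3 genes narciclasine 12 h was the low library, and control 12 h was above control 2 h. How reads shared between such relatives were assigned is not given in the sources used here.

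The phosphoglycerate mutase family gene AT5G04120 was at 119 RPKM in narciclasine 2 h and 148 in control 2 h, and 2.23 RPKM in narciclasine 12 h and 113 in control 12 h, and D was -4.83 (-5.19 to -4.46). The class III peroxidase gene AT1G14550 was one of those that were past 2-fold higher at 2 h and past 2-fold lower at 12 h. It was at 97.3 RPKM in narciclasine 2 h and 23.2 in control 2 h, and 2.25 RPKM in narciclasine 12 h and 33.9 in control 12 h, and D was -5.45 (-5.86 to -5.04).

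On the upward side, the late embryogenesis abundant protein gene AT5G66780 was at 2.35 RPKM in narciclasine 2 h and 3.73 in control 2 h, and 29.0 RPKM in narciclasine 12 h and 0.805 in control 12 h, and D was 4.55 (3.76 to 5.34). The MATE efflux transporter gene AT1G71140 was at 3.32 RPKM in narciclasine 2 h and 5.62 in control 2 h, and 48.7 RPKM in narciclasine 12 h and 3.44 in control 12 h, and D was 4.10 (3.66 to 4.54). The calcium-binding protein gene AT3G47480 was at 1.42 RPKM in narciclasine 2 h and 0.579 in control 2 h, and 27.9 RPKM in narciclasine 12 h and 0.142 in control 12 h, and D was 4.05 (3.27 to 4.82). In these 3 genes narciclasine 12 h was the high library. The nucleoside triphosphate hydrolase family gene AT2G18190 had 0.331 RPKM in narciclasine 2 h and 35.3 RPKM in narciclasine 12 h, and it was listed at 0 in control 2 h and control 12 h, so no fold is given for it.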
